A study of Mus musculus with 31 samples.

Results

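Mdm2, the ubiquitin ligase that marks p53 for degradation, was far more abundant in RM9 than in MC38 tumors, and so were the 5 members next to it along the chromosome, whereas 3 members beyond a gap on one side stood much closer between the models. After a single dose of 15 Gy, Mdm2 rose in both models, and in RM9 tumors it was the only one of these genes to pass the test at 3 and 12 h. Neither of these RM9 calls held without the libraries richest in muscle. The genes described are Mdm2 and 8 neighbours on mouse chromosome 10, namely Frs2, Yeats4, Cpsf6, Cpm, Slc35e3, Nup107, Rap1b and Mdm1, which make 9 of the 46072 genes in the deposited tables. They were chosen by name and position, and the choice started from the level of Mdm2 in unirradiated tumors of the 2 models. The difference between the models among control tumors is therefore given as a description, with no test.

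Mdm2 protein binds p53, blocks its activity and directs it to the proteasome. The Mdm2 gene is in turn a transcriptional target of p53, which closes a feedback loop that limits the p53 response to DNA damage such as ionizing radiation causes. Extra copies of MDM2 are known from several human tumors, where the copied segment often carries neighbouring genes. Copy number was not measured in these libraries.

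Both tumors were grown from cell lines, RM9 (mouse prostate cancer) and MC38 (mouse colon cancer), each injected under the skin of the right hind leg of wild type C57BL/6 mice (C57BL/6J in the study's methods), and the labels call both adenocarcinoma. Tumors of about 8 mm in diameter were left unirradiated or received 15 Gy once, and tumor tissue was taken 3, 12 or 24 h later, with 4 tumors in each group and 3 in RM9 at 24 h. The label of the control tumors carries the 3 h time only, so at 12 and 24 h the comparison with control also spans a difference in time of collection. The study asked how gene expression changes early after radiotherapy. Each model rests on 1 cell line, so tumor type, cell line and any difference between the library sets of the models cannot be told apart. In whole tumors, fewer cells of a type and less RNA per cell cannot be told apart either.

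The values are in TPM, a level per transcript length with the same sum in every library. Depth estimated from the coverage column was 21.4 M to 29.4 M reads per library. 1 mitochondrial gene, mt-Nd4l, took 35.6% to 43.5% of all TPM in RM9 tumors and 12.9% to 29.6% in MC38 tumors, and the median gene lay lower in RM9, by 0.63 on the log2 scale in control tumors. The epithelial keratins Krt8 and Krt18 had medians of 767 and 238 TPM in RM9 tumors and of 0 TPM in MC38 tumors. The other 2 epithelial markers were low in both, Epcam at medians of 1.15 and 0 TPM and Cdh1 at 0.441 and 0.566 TPM, so in MC38 tumors all 4 markers were near or at 0 despite the label adenocarcinoma. Markers of fibroblasts (4) and neutrophils (4) had 0 genes called after radiation in either model. In MC38 at 24 h, 2 neutrophil markers had an unadjusted limma p under 0.05, beside 4785 of 15704 genes. The median difference of the 4 was 0.70, and that of all genes was 0.22. In each other comparison with control, 1 or 0 of the 4 neutrophil markers had such a p. Markers of endothelium (3) had 2 called higher in MC38 at 24 h, where 13.2% of all genes were called higher. The summed level of 6 skeletal muscle markers ranged from 2.75 to 2205 TPM in RM9 and from 5.51 to 10318 TPM in MC38 tumors. Counts of members that passed the test are given with and without the libraries richest in muscle.

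In the coordinates of the tables, which match GRCm38, the 9 genes span 1.10 Mb of chromosome 10, in the order Frs2, Yeats4, Cpsf6, Cpm, Mdm2, Slc35e3, Nup107, Rap1b and Mdm1. Mdm2 (ENSMUSG00000020184) lies on the minus strand at chr10:117688888-117710758. Cpm ends 1.54 kb before Mdm2, Slc35e3 begins 22.9 kb after it, and Nup107 begins 4.27 kb after Slc35e3. The gap between Cpsf6 and Cpm is 249 kb, and that between Rap1b and Mdm1 is 296 kb. The reference promoters of 4 members are shown, taken from 250 bases before to 50 bases after the start given by RefSeq (GRCm38.p6). They cover the gene that rose after radiation (Mdm2) and 1 gene that did not share its high level in RM9 (Cpsf6). The other 2, the adjacent genes Slc35e3 and Nup107, shared the high level in RM9 but were not called after radiation there. Windows were found for 9 of the 9 members. Capitals mark GC boxes (GGGCGG, or CCGCCC on the other strand), CCAAT boxes (CCAAT, or ATTGG on the other strand) and matches to the consensus half-site of p53.
Mdm2, chr10:117710709-117711008, minus strand: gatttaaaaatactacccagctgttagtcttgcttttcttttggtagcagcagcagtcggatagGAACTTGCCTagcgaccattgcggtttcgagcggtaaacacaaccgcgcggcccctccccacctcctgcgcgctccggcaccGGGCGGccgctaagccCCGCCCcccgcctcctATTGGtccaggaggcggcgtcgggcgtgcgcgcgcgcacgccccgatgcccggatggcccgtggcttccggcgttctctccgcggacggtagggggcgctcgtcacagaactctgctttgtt
Slc35e3, chr10:117746309-117746608, minus strand: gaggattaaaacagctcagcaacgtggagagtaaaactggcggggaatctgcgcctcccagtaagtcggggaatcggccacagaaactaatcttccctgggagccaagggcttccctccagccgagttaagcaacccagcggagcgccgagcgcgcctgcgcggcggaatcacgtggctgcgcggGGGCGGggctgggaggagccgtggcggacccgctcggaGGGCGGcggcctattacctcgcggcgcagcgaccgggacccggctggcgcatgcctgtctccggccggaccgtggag
Nup107, chr10:117792656-117792955, minus strand: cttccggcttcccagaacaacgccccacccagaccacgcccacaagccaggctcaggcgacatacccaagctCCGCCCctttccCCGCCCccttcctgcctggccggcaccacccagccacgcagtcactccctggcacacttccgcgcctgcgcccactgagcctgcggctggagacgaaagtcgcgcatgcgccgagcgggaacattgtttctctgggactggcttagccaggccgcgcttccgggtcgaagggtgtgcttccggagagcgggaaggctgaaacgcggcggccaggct
Cpsf6, chr10:117376924-117377223, minus strand: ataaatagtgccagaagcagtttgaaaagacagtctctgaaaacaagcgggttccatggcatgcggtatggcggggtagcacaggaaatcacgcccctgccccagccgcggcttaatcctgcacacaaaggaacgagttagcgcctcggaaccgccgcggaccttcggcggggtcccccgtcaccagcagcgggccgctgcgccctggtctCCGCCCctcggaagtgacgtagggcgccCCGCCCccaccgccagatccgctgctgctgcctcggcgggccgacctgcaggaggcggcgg

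The window of Mdm2 held 2 GC boxes, 1 CCAAT box and 1 match to the p53 half-site, with no overlap between them. GC boxes were present in the windows of 9 of the 9 members and in 35.7% of all 32851 windows of the table. CCAAT boxes were present in 3 members (Yeats4, Mdm2 and Mdm1) and in 37.4% of all windows. The p53 half-site was matched in 1 member, Mdm2, and in 8.36% of all windows. The letters TATAAA on either strand were in 0 of the 9 windows and in 13.6% of all windows. The promoter through which p53 is known to act on Mdm2 lies in the first intron, outside these windows, and was not analysed here. The windows are reference sequence and were not read from the tumors.

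In control RM9 tumors Mdm2 stood at 512, 462, 880.1 and 721 TPM in mice 1 to 4. In control MC38 tumors it stood at 12.2, 18.4, 18.4 and 13.6 TPM. The groups did not overlap, and the lowest RM9 tumor lay 25.1 times above the highest MC38 tumor. The means were 644 ± 193 TPM (SD, n = 4) and 15.6 ± 3.22 TPM (SD, n = 4), a ratio of 41.2. These levels correspond to an estimated 31680 to 55122 reads per library in control RM9 and 853 to 1041 reads in control MC38 tumors, so counting error was small beside the spread between tumors. On the coverage column of the same files, scaled to equal depth, the ratio was 45.6.

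Among the other 5 genes of the high stretch, the ratio of mean control TPM was smaller the farther the midpoint of the gene lay from that of Mdm2. This order did not hold on the log2(TPM + 0.5) scale, where Cpm, at 3.06, stood below Nup107 and Rap1b, at 3.88 and 3.47. Slc35e3, a member of the family of nucleotide sugar transporters, had 109 ± 26.0 TPM in RM9 and 3.97 ± 1.23 TPM in MC38 (SD, n = 4 each), a ratio of 27.5. Cpm, a membrane carboxypeptidase that trims basic residues from peptides, had 6.72 ± 1.93 against 0.344 ± 0.0653 TPM, a ratio of 19.6. The MC38 value of Cpm rests on an estimated 25.9 to 44.7 reads per control library. Nup107, a scaffold protein of the nuclear pore, had 392 ± 62.4 against 26.2 ± 5.10 TPM, a ratio of 14.9. Rap1b, a small GTPase that activates integrins, had the highest level of the 9 genes, 1552 ± 228 against 139 ± 18.3 TPM, a ratio of 11.1. Mdm1, a microtubule-binding protein of centrioles, had 51.1 ± 10.3 against 5.77 ± 1.30 TPM, a ratio of 8.86. In these 6 genes every RM9 control tumor lay above every MC38 control tumor, by at least 5.91 times.

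The 3 members on the other side of the 249 kb gap were closer between the models. Frs2, an adaptor of fibroblast growth factor receptors, had 9.89 ± 1.74 against 3.87 ± 1.02 TPM, and Yeats4, a reader of acetylated histones, had 51.4 ± 5.65 against 27.9 ± 3.53 TPM (SD, n = 4 each). These ratios were 2.56 and 1.84, and the control tumors of the 2 models did not overlap in either gene. Cpsf6, a subunit of the cleavage factor that sets the place of polyadenylation, had 31.1 ± 2.91 against 29.1 ± 7.62 TPM, a ratio of 1.07. Its RM9 tumors, at 27.7, 29.9, 34.0 and 33.1 TPM, lay within the range of the MC38 tumors, at 19.6, 33.3, 36.8 and 26.6 TPM.

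**Figure D1:**
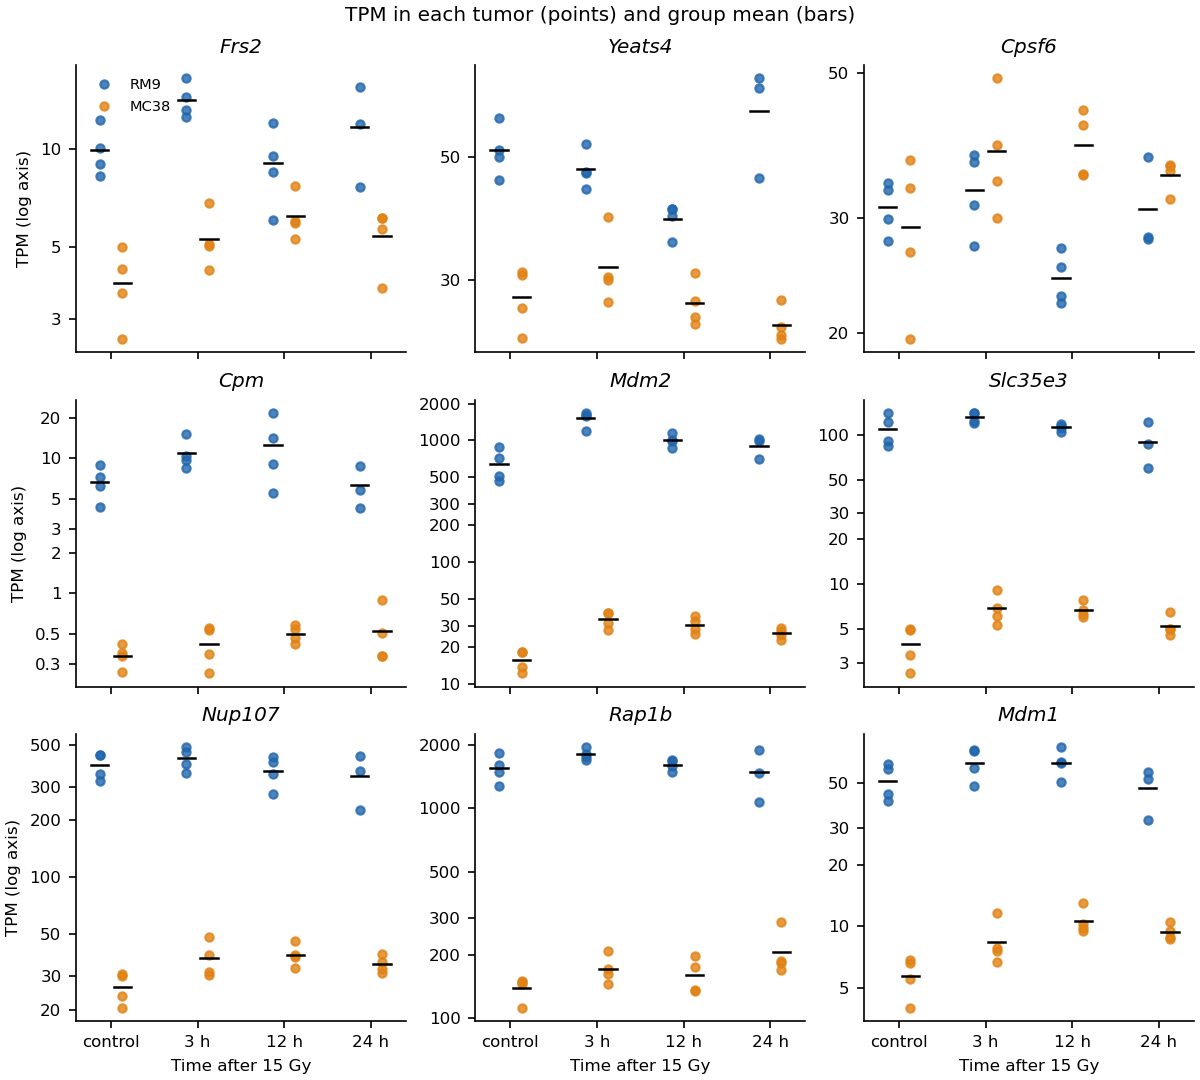
TPM of each of the 9 genes (vertical log axis, ranges differ between panels) in every RM9 tumor (blue) and MC38 tumor (orange) by group, with group means as bars. In the panels of Cpm, Mdm2, Slc35e3, Nup107, Rap1b and Mdm1 all 15 RM9 tumors lie above all 16 MC38 tumors, and in the panel of Cpsf6 the models overlap.

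Irradiated tumors came from other mice of the same 2 cell lines. Since the genes were chosen for the level of Mdm2 in these lines, with all groups in view, the differences among irradiated tumors are given as a description, without p-values, and nothing is read from the counts. They were fitted with limma on log2(TPM + 0.5) over 15358 genes. Of the 9 members, 8 passed the threshold as higher in RM9 at 3 h, 8 at 12 h and 8 at 24 h, against 10.3%, 7.03% and 7.92% of all genes. Mdm2 stood at 1517 ± 227 against 34.0 ± 5.14 TPM at 3 h (SD, n = 4 each), a log2 difference of 5.46 ± 0.17 (SE), and differed by 5.02 at 12 h and 5.07 at 24 h. Few genes differed by more than Mdm2, 15 of 15358 at 3 h, 22 at 12 h and 19 at 24 h. For the other members at 3 h, the differences were 4.17 for Slc35e3, 3.62 for Cpm, 3.52 for Nup107, 3.397 for Rap1b, 2.83 for Mdm1, 1.35 for Frs2 and 0.59 for Yeats4. The counts were the same without the 5 libraries richest in muscle. At 12 h Frs2, with a difference of 0.47, no longer passed without RM9 mouse 2, 3 or 4 or without MC38 mouse 1, 3 or 4.

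Cpsf6 was the exception. Its difference was -0.18 at 3 h and -0.18 at 24 h, and at 12 h it stood lower in RM9, at 24.3 ± 2.24 against 38.8 ± 4.598 TPM (log2 difference -0.66). That direction depended on the scale. A lower value in RM9 was called for 69.5%, 80.1% and 72.3% of all genes at 3, 12 and 24 h, and the median gene lay at -0.76, -1.10 and -0.85. When libraries were scaled by the median ratio over genes, the difference of Cpsf6 at 12 h turned to 0.53, and all genes split into 5150 higher and 5570 lower in place of 1079 higher and 12306 lower. Under that scaling Mdm2 differed by 6.25, 6.22 and 5.99 at 3, 12 and 24 h.

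The nearest measured genes on either flank of the high stretch had smaller differences than its members, while Hmga2, farther away, did not. Within 3 Mb on either side of the members, 39 of 94 annotated genes were expressed, with a mean of at least 0.5 TPM in either model, and 30 of these were not members. Of the 26 that could be tested, 2 were higher in RM9 at all 3 times after radiation and 11 were lower at all 3. The share of all genes called at all 3 times is not given here, so nothing is read from these counts. At a single time, 69.5% to 80.1% of all genes were called lower and 7.03% to 10.3% higher. Measured from the median gene, 20 of the 26 lay above it at 3 h, 22 at 12 h and 21 at 24 h. Before Frs2, Cct2 (a subunit of the TRiC chaperonin) had a control difference of 0.96, and Rab3ip one of 0.54. Lyz2, a lysozyme gene of macrophages that sits between Yeats4 and Cpsf6, had one of -0.24. Beyond Mdm1, the next expressed genes were predicted genes at 1.11 TPM or less in either model and then Ifng, which had a mean of 0.0932 TPM in RM9 and 1.87 TPM in MC38. Dyrk2, a kinase gene 1.16 Mb from Mdm2, had a control difference of 1.00, and Cand1, 1.52 Mb away, one of 0.54. The 2 genes higher at all 3 times were 5330438D12Rik, at a mean of 1.52 against 0.556 TPM, and Hmga2, which encodes a chromatin protein of embryonic and transformed cells. Hmga2, 2.72 Mb from Mdm2, had means of 202 and 29.4 TPM over all tumors of each model. Its control difference was 3.45, above those of Cpm and Mdm1, and its difference at 3 h was 3.11.

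**Figure D2:**
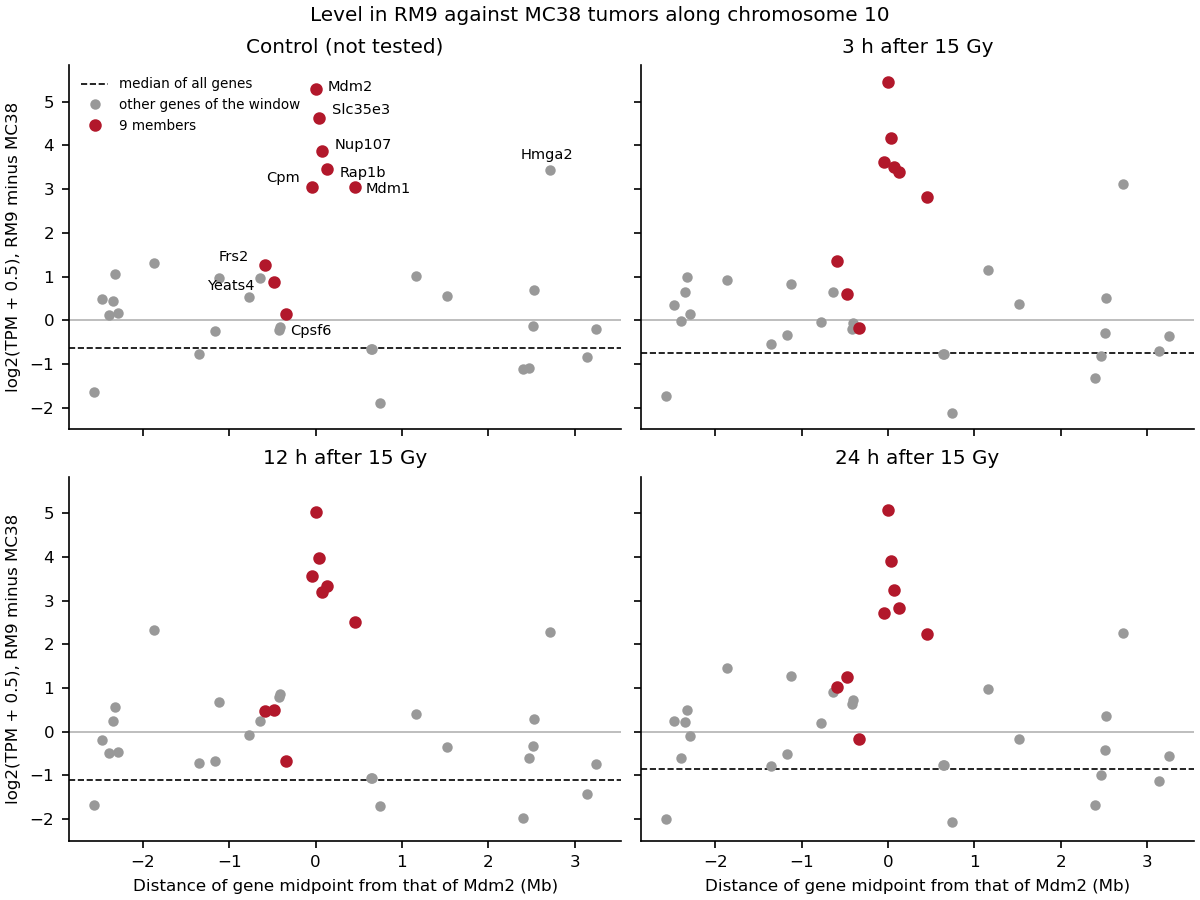
Difference in log2(TPM + 0.5) between RM9 and MC38 tumors (vertical axis) for the tested genes of the window by distance of their midpoint from that of Mdm2 in Mb (horizontal axis), in control tumors and at 3, 12 and 24 h after 15 Gy. The 6 genes from Cpm to Mdm1 stand together between 3.04 and 5.29 in control tumors, Cpsf6 stands at 0.13, and the dashed line marks the median of all genes.

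Genes whose products work with the members, or are their paralogs, mostly did not share the high level. The partner list held 29 genes, of which 2 were called higher and 24 lower in RM9 at 3 h. At 12 h 2 were called higher and 27 lower, and at 24 h 2 higher and 25 lower. Of all genes, 69.5%, 80.1% and 72.3% were called lower at 3, 12 and 24 h, and 10.3%, 7.03% and 7.92% higher. The median difference of the list was -0.76 at 3 h, beside -0.76 over all genes. Nup107 works in the Y complex of the nuclear pore, and of 9 other genes of that complex 9 were lower in RM9 at each of the 3 times, with differences from -1.60 to -0.69 at 3 h. Nup107 itself differed by 3.52 in the opposite direction. Rap1a, the close paralog of Rap1b, had 28.5 ± 2.05 TPM in RM9 and 46.4 ± 3.95 TPM in MC38 at 3 h (SD, n = 4 each), a log2 difference of -0.69, while Rap1b had 1807 ± 114 against 172 ± 26.9 TPM. The other 2 subunits of the cleavage factor, Cpsf7 and Nudt21, differed by -0.94 and -1.51 at 3 h, and Cpsf6 by -0.18. The 2 genes of the list called higher in RM9 at 3 h were Cpe and Cpz, paralogs of Cpm, at 0.66 and 1.52. After radiation, 0, 5 and 0 of the partners were called lower in RM9 at 3, 12 and 24 h, and 0, 12 and 3 were called higher in MC38. The shares of all genes were 8.31% lower in RM9 at 12 h and 28.5% and 13.2% higher in MC38 at 12 and 24 h. Counted in either direction, 8, 16 and 0 partners had an unadjusted limma p under 0.05 in RM9, beside 3061, 4345 and 682 of 14015 genes. At 3 h the RM9 differences of the partners ran from -0.28 to 0.59, with a median of 0.08.

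Mdm2 rose after radiation in RM9 tumors. The 4 tumors taken at 3 h had 1606, 1586, 1184 and 1692 TPM, those at 12 h 864, 1149.96, 1017 and 995 TPM, and the 3 at 24 h 706, 1018 and 979.7 TPM. Every tumor at 3 h lay above every control tumor, while 1 tumor at 12 h and 1 at 24 h lay below the highest control. The rise was 2.41-fold at 3 h (log2 difference 1.27 ± 0.19, SE, limma adjusted p = 0.015) and 1.61-fold at 12 h (0.69 ± 0.19, adjusted p = 0.0413). At 24 h the difference was 0.51 ± 0.20 and did not pass the test (adjusted p = 0.999, unadjusted p = 0.0228). In RM9, 1 of 9 members was called higher at 3 h and 1 at 12 h, in each case Mdm2, against 0.2% and 0.0714% of 14015 genes. No member was called lower, against 0.0285% and 8.31% of all genes. At 24 h limma called 0 of 9 members and 0% of all genes in either direction, and Dunnett's test called 0 members. An unadjusted limma p under 0.05 was met at 24 h by 1 member, Mdm2, beside 682 of 14015 genes.

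In RM9 the rise of Mdm2 kept its direction in every fit named here, but not its call. Muscle markers summed to 228 to 2184 TPM in the RM9 controls and to 2.95 to 856 TPM at 3 h, and the 2 controls lowest in Mdm2, mice 1 and 2, held the most muscle, at 2184 and 1239 TPM. Without the RM9 libraries above 2000 TPM of muscle markers (control mouse 1 and mouse 1 at 24 h) Mdm2 differed by 1.18 at 3 h (adjusted p = 0.0907) and 0.59 at 12 h (adjusted p = 0.0656), so 0 members passed at either time. With the muscle level as a term the differences were 1.22 (adjusted p = 0.159) and 0.64 (adjusted p = 0.213). Leaving out control mouse 1 or 2, or mouse 2 or 4 at 3 h, gave adjusted p of 0.0935, 0.074, 0.0605 and 0.0643 at 3 h, with differences from 1.13 to 1.25. At 12 h the call held only without control mouse 3, and leaving out any of the other 7 libraries gave adjusted p from 0.0577 to 0.107. An exact permutation test on mean TPM, two-sided, gave p = 0.0286 at 3 h, the smallest that 4 against 4 allows, and 0.129 after adjustment over 72 such tests.

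Mdm2 rose at all 3 times in MC38 tumors. The tumors taken at 3 h had 27.8, 31.7, 38.2 and 38.3 TPM, those at 12 h 25.9, 32.6, 35.8 and 28.2 TPM, and those at 24 h 23.1, 27.1, 25.3 and 28.9 TPM. Each of these 12 irradiated tumors lay above the highest control at 18.4 TPM. The rise was 2.15-fold at 3 h (log2 difference 1.11 ± 0.15, SE, adjusted p = 0.0121), 1.94-fold at 12 h (0.96 ± 0.15, adjusted p = 0.00495) and 1.67-fold at 24 h (0.74 ± 0.15, adjusted p = 0.00685). Exact permutation gave p = 0.0286 at each time and 0.129 after adjustment. MC38 control mouse 1 held the most muscle of all libraries, 10318 TPM of the 6 markers, and without the MC38 libraries above 2000 TPM the differences were 1.02, 0.85 and 0.69, with adjusted p of 0.0465, 0.00979 and 0.0166. At 3 h the call was lost without control mouse 4 (adjusted p = 0.0877) or without mouse 3 at 3 h (adjusted p = 0.0654). The mean of Mdm2 at 24 h minus that at 3 h was -7.87 TPM in MC38 and -616 TPM in RM9, each with an exact permutation p of 0.0571 (0.179 adjusted), and neither passed 0.05.

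The 2 measures in the files gave the rise of Mdm2 different sizes. The authors' FPKM of Mdm2 exceeded the value implied by its coverage 2.16 ± 0.0823-fold in RM9 controls and 1.74 ± 0.0399-fold in MC38 controls, whereas for Nup107 the factor was 1.01. In MC38 the factor was 1.99 ± 0.188 at 3 h (SD, n = 4). On coverage at equal depth, Mdm2 differed from control by 1.10, 0.83 and 0.53 at 3, 12 and 24 h in RM9 and by 0.74, 0.52 and 0.38 in MC38. The calls were the same as on TPM, with adjusted p of 0.0055 and 0.0419 in RM9 at 3 and 12 h and from 0.00038 to 0.00212 in MC38. Mdm2 has 9 annotated transcripts in GENCODE M21, and transcripts were not separated in the tables used here.

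Of the neighbours, none was called in RM9 at any time by limma. Unadjusted limma p was below 0.05 for 2 members at 3 h and 4 at 12 h, Mdm2 included, beside 3061 and 4345 of 14015 genes. Frs2 had 8.27, 8.97, 12.2 and 10.1 TPM in the controls and 16.5, 13.1, 12.6 and 14.5 TPM at 3 h. All 4 irradiated tumors lay above every control (exact permutation p = 0.0286, 0.129 adjusted, as for Mdm2), and the difference of 0.50 had a limma adjusted p of 0.185. Rap1b had 1277, 1496, 1824 and 1609 TPM in the controls and 1961, 1698, 1818 and 1749 TPM at 3 h, with 3 of 4 irradiated tumors inside the control range. Its difference was 0.23 (95% interval -0.08 to 0.53). Nup107 differed by 0.13, Slc35e3 by 0.29 and Mdm1 by 0.29 at 3 h, with adjusted p from 0.345 to 0.706. Cpm was the most variable member, at 5.53, 14.1, 21.9 and 9.09 TPM at 12 h against 6.24, 4.37, 7.27 and 8.996 TPM in controls, and its difference of 0.74 had an interval of 0.02 to 1.46 (adjusted p = 0.151). Yeats4 and Cpsf6 had lower means at 12 h than in controls, by -0.40 (adjusted p = 0.0517) and -0.35 (adjusted p = 0.0744), when the median gene lay at -0.19.

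In MC38, the neighbours were called mainly at 12 h. At 3 h, 1 of 9 members was called higher, Mdm2, against 0.0509% of 15704 genes, and 0 lower against 0.0127%. At 12 h, 5 of 9 were called higher, against 28.5% of all genes, and 0 lower, against 2.59%. At 24 h, 3 of 9 were called higher, against 13.2%, and 0 lower, against 0.548%. Markers of macrophages and T cells moved the other way in MC38 at 12 h, with 4 of 6 and 2 of 4 called lower. In RM9 at 12 h, 4 of 6 and 2 of 4 were also called lower, where 8.31% of all genes were called lower and the median gene lay at -0.19. The part of these cells in the members' values was not tested. In MC38 the median gene lay at 0.19, 0.33 and 0.22 above control at 3, 12 and 24 h, and the members' medians were 0.42, 0.57 and 0.41. Mdm1 rose from 4.02, 6.61, 6.89 and 5.56 TPM in controls to 9.53, 12.97, 9.84 and 10.2 TPM at 12 h. These groups did not overlap, and the difference was 0.85 ± 0.18 (SE, adjusted p = 0.0106). Mdm1 was also called at 24 h, at 0.68 (adjusted p = 0.0225).

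Slc35e3, Frs2 and Nup107 were called in MC38 at 12 h as well, at 0.73, 0.64 and 0.57 (adjusted p = 0.0204, 0.0294 and 0.0218). Rap1b was called at 24 h, from 112, 149.6, 149.9 and 146 TPM in controls to 287, 170.1, 182 and 188 TPM, a difference of 0.54 (adjusted p = 0.0483). Without the libraries richest in muscle, 2 members, Mdm2 and Mdm1, were called at 12 h and 1, Mdm2, at 24 h. Without control mouse 1 alone, adjusted p was 0.0601 for Slc35e3, 0.0948 for Frs2 and 0.0669 for Nup107 at 12 h, and 0.0595 for Mdm1 and 0.141 for Rap1b at 24 h. Leaving out control mouse 4 or mouse 2 at 12 h also ended the calls of these 3 genes at 12 h, at adjusted p from 0.0519 to 0.0863. For Slc35e3 leaving out mouse 4 at 12 h did so as well (0.0521), and for Frs2 leaving out mouse 3 (0.0536) or mouse 4 (0.064). The call of Mdm1 at 24 h was lost without control mouse 4 (0.0512) or mouse 4 at 24 h (0.0587), and the call of Rap1b was lost on leaving out any library except control mouse 3, at adjusted p from 0.0505 to 0.141. Under median-ratio scaling, which moves the median gene to 0.01 at 12 h and splits all calls into 995 higher and 1546 lower in place of 4469 and 406, Mdm2, Mdm1 and Slc35e3 were called higher at 12 h and Yeats4 was called lower, at -0.38 (adjusted p = 0.0141).

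**Figure D3:**
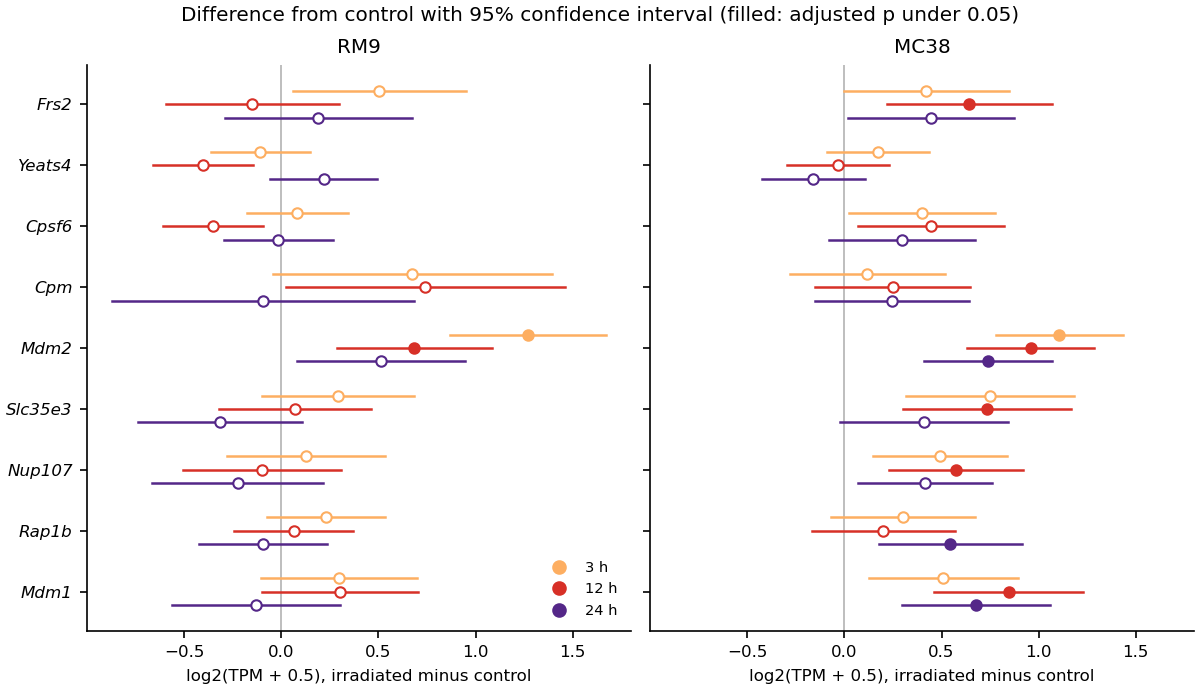
Difference of each gene from control in log2(TPM + 0.5) (horizontal axis) at 3, 12 and 24 h after 15 Gy in RM9 (left) and MC38 tumors (right), with the 95% interval as a line and a filled point where the adjusted p was under 0.05. Mdm2 is filled at 3 and 12 h in RM9, at 1.27 and 0.69, and at all 3 times in MC38, at 1.11, 0.96 and 0.74.

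The response of Mdm2 did not pass the test of a difference between the models at any time. The RM9 response minus the MC38 response was 0.17 at 3 h (95% interval -0.34 to 0.67, adjusted p = 0.855), -0.27 at 12 h (-0.78 to 0.23, adjusted p = 0.355) and -0.22 at 24 h (-0.75 to 0.31, adjusted p = 0.633). At 3 h, 0 members differed in response, and 0% of 15358 genes were called in either direction. No member had an unadjusted limma p below 0.05 at 3 h, beside 1519 of 15358 genes. At 12 h, 3 members responded lower in RM9, Cpsf6 at -0.79 (adjusted p = 0.00815), Frs2 at -0.79 (adjusted p = 0.0331) and Nup107 at -0.67 (adjusted p = 0.0364), against 44.9% of all genes called lower and 0.469% called higher. That share of members was below that of all genes, the median gene lay at -0.50, and under median-ratio scaling 0 members and 201 higher and 235 lower genes were called. Cpsf6 was called whichever library was left out, while Frs2 was lost without RM9 control mouse 3 or 4, RM9 mouse 1 or 4 at 12 h, MC38 control mouse 1 or 4 or MC38 mouse 2 at 12 h, at adjusted p from 0.0505 to 0.097. Nup107 was lost without the same 7 libraries or MC38 mouse 3 at 12 h, at adjusted p from 0.051 to 0.1. At 24 h, 0 members were called, against 1.81% of genes lower and 0% higher. An unadjusted limma p under 0.05 was met by 5 members and by 3402 of 15358 genes, when the median gene lay at -0.25. Of the 5, Yeats4 responded higher in RM9, at 0.38, and Mdm1, Rap1b, Nup107 and Slc35e3 lower.

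A ratio within each library removes the scaling of that library. The largest term of the sum was Rap1b, with means of 1552 TPM in RM9 and 139 TPM in MC38 controls, so the share also depends on Rap1b. Mdm2 made up 21.7%, 18.3%, 25.5% and 23.6% of the summed TPM of the 9 genes in the RM9 controls, and 36.9%, 39.9%, 32.7% and 39.8% at 3 h. The groups were apart, with means of 22.3 ± 3.06% and 37.3 ± 3.39% (SD, n = 4 each), and the difference of 15.0 percentage points had an exact permutation p of 0.0286 (two-sided, 0.0429 adjusted over 6 comparisons). At 12 h the share was 30.98 ± 0.993% (exact p = 0.0286) and at 24 h 30.6 ± 2.20% (n = 3, p = 0.0571, the smallest that 3 against 4 allows). Every irradiated RM9 tumor, at 28.1% or more, lay above the highest control, at 25.5%. In MC38 the share rose from 6.17 ± 0.509% to 10.2 ± 1.15% at 3 h and 9.57 ± 0.882% at 12 h (exact p = 0.0286 each, 0.0429 adjusted). At 24 h it was 7.69 ± 1.60% (exact p = 0.143), where mouse 1, the tumor with 3483 TPM of muscle markers and the highest Rap1b, stood at 5.34% and the other 3 tumors at 8.02% to 8.73%.

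**Figure D4:**
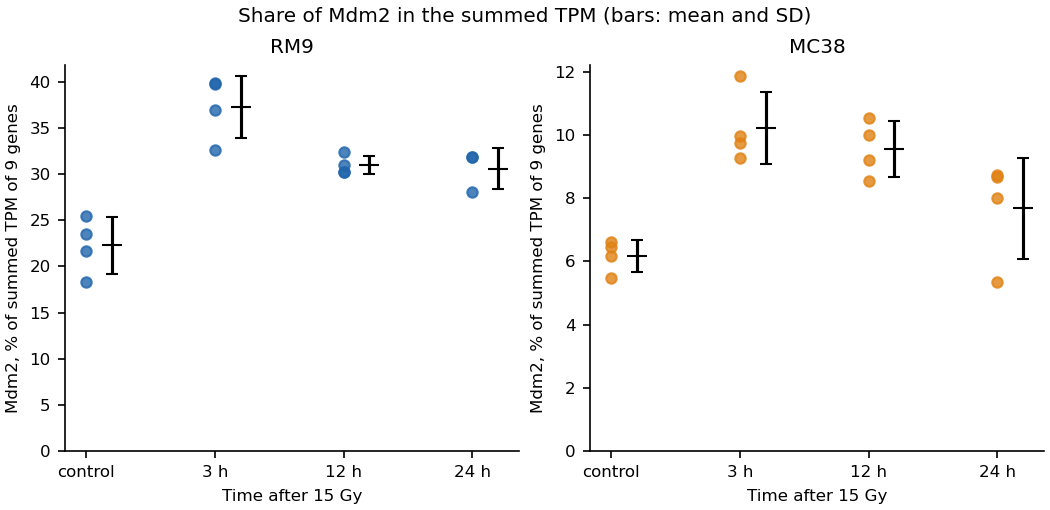
Share of Mdm2 in the summed TPM of the 9 genes, in percent (vertical axis from 0, ranges differ between panels), in each RM9 tumor (left) and MC38 tumor (right) by group, with mean and SD beside the points. In RM9 the controls lie between 18.3% and 25.5% and the tumors at 3 h between 32.7% and 39.9%.

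Among RM9 tumors of the same group, the 6 genes of the high stretch went up and down together. The deviations of log2(TPM + 0.5) from the group mean were compared between genes across the 15 tumors, as a description with no test, since the points of a tumor share its library, its depth and its content of other tissue. The split into 6 and 3 genes was made after seeing the levels. Pearson's r had a median of 0.790 over the 15 pairs within the 6 genes (0.498 to 0.941) and of 0.118 over the 18 pairs between one of the 6 and one of Frs2, Yeats4 and Cpsf6 (-0.687 to 0.618). The closest pair was Nup107 and Mdm1, and Mdm2 had an r of 0.908 with Mdm1, 0.837 with Nup107 and 0.8294 with Slc35e3. In the 16 MC38 tumors the medians were 0.602 within the 6 genes and 0.754 between the sets. Median-ratio scaling gave 0.661 and -0.233 in RM9 and 0.254 and 0.607 in MC38. Mouse 1 of RM9 at 24 h was the clearest case. It had 1076 TPM of Rap1b, 59.7 of Slc35e3, 228 of Nup107, 33.0 of Mdm1 and 4.29 of Cpm, each the lowest of all 15 RM9 tumors. Its Mdm2, at 706 TPM, was the lowest of the 3 tumors at 24 h but lay above RM9 control mice 1 and 2, at 512 and 462 TPM. Its Yeats4, at 66.5 TPM, lay above every RM9 control. That tumor had the highest muscle level of the RM9 set, 2205 TPM, and the part of muscle in this pattern was not tested.

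**Figure D5:**
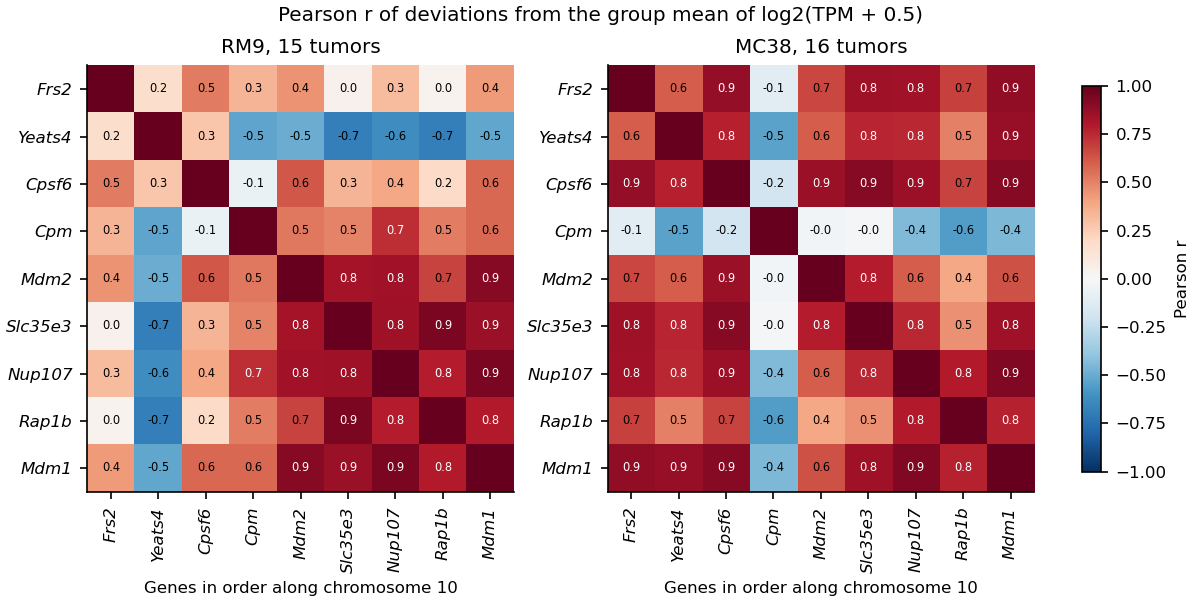
Pearson's r between pairs of the 9 genes, ordered along chromosome 10, for deviations from the group mean across the 15 RM9 tumors (left) and the 16 MC38 tumors (right), colored from -1 (blue) to 1 (red). In RM9 the 6 genes from Cpm to Mdm1 form a block of r from 0.498 to 0.941, which in MC38 extends to Frs2, Yeats4 and Cpsf6 and leaves out Cpm.

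Of the partners of Mdm2 in the p53 loop, Cdkn2a had the largest difference between the models. The list of regulators held 10 measured genes, of which 2 were higher and 7 lower in RM9 at 3 h after radiation, a split close to that of all genes (10.3% higher and 69.5% lower). Cdkn2a, whose ARF product inhibits Mdm2, had 151 ± 15.2 TPM in RM9 and 10.6 ± 2.18 TPM in MC38 at 3 h (SD, n = 4 each), a log2 difference of 3.78, when the median gene lay at -0.76. Trp53, which encodes p53, had 90.7 ± 9.76 against 149 ± 15.4 TPM (-0.71). Mdm4, the Mdm2 relative that binds p53 without strong ligase activity of its own, had 10.8 ± 1.39 against 15.2 ± 2.32 TPM. Its difference of -0.47 did not pass the threshold. After radiation, 0 regulators were called in RM9 at 3 h and 1 at 12 h, Trp53, lower by -0.49. At 12 h 8.31% of all genes were called lower in RM9, and the median gene lay at -0.19. In MC38, 0 regulators were called at 3 h and 5 higher at 12 h (Cdkn2a, Mdm4, Ppm1d, Trp53 and Usp7), where 28.5% of all genes were called higher. At 24 h in MC38, 1 was called higher (Rchy1), beside 13.2% of all genes. Unadjusted limma p at 3 h was under 0.05 for 2 regulators in RM9 and 4 in MC38, beside 3061 of 14015 and 3129 of 15704 genes. At 24 h in RM9 limma called 0 regulators, with 0 at an unadjusted p under 0.05, beside 682 of 14015 genes.

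Some other p53 targets rose after radiation, among them Trp53inp1 and Cdkn1a in both models at 3 h. The list held 19 targets, of which 6 were called higher in RM9 at 3 h, 3 at 12 h and 0 at 24 h. In MC38, 2, 9 and 5 were called higher, and 0 were called lower in any of these 6 comparisons. In RM9 at 24 h, 8 targets had an unadjusted limma p below 0.05, beside 682 of 14015 genes. The shares of all genes called higher were 0.2%, 0.0714% and 0% in RM9 and 0.0509%, 28.5% and 13.2% in MC38, and the median target in MC38 lay at 0.42 at 12 h and 0.42 at 24 h, beside 0.33 and 0.22 over all genes. The medians at 3 h were 0.67 in RM9 and 0.42 in MC38, beside 0.06 and 0.19 over all genes. In RM9 at 3 h the 6 were Trp53inp1, Ccng1, Cdkn1a, Sesn2, Plk2 and Polk, with differences from 1.72 to 0.79, and Mdm2 at 1.27 lay between the first and the second of these. Trp53inp1, a stress protein that promotes p53 activity, rose from 3.54 ± 0.543 to 13.2 ± 4.20 TPM in RM9 and from 1.63 ± 0.286 to 5.31 ± 1.06 TPM in MC38 at 3 h (1.72 and 1.44 on the log2 scale). Cdkn1a, the p21 inhibitor of cyclin-dependent kinases, rose from 97.6 ± 13.5 to 190.1 ± 28.3 TPM in RM9 and from 58.2 ± 6.62 to 102 ± 15.3 TPM in MC38.

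The genes whose levels ran most like Mdm2 were taken as the 5 with the highest Pearson's r on log2(TPM + 0.5) within a model, as a description. Across the 15 RM9 tumors and 12695 genes they were Nmrk1 (0.949), Tpp1 (0.946), Notch3 (0.942), Tmem63b (0.923) and Polk (0.921), of which Polk, a DNA polymerase that copies past lesions, was on the list of p53 targets. Across the 16 MC38 tumors and 14235 genes they were Fam101b (0.928), Zmat3 (0.928), C78339 (0.914), Wdr91 (0.913) and Wdhd1 (0.912), of which Zmat3, an RNA-binding protein, was on that list. None of these 10 genes lies on chromosome 10.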

How the data were processed

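Tumor RNA of 31 mice was sequenced as stranded mRNA libraries with single 75-base reads. Per the labels, reads were demultiplexed with bcl2fastq 2.17, and a GRCm39 build is named, whereas gene positions in the deposited tables match GRCm38. The aligner and quantifier are not given in the sources used here. The authors deposited, for each library, TPM, FPKM and mean coverage per gene, where the coverage signal is reads per base and TPM and FPKM are normalized for length and depth. For the 7 to 16 genes in several rows per library, TPM and FPKM were summed and the highest coverage was kept.

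Members and gene lists were chosen with earlier results of these data known. The text names the members, expressed genes within 3 Mb of them, the 5 genes per model with the highest Pearson r with Mdm2 among genes of at least 1 TPM, and, from lists of p53 and Mdm2 regulators, p53 targets and partners or paralogs of the members, genes called in a comparison; tissue marker lists are summarised. Genes with a mean of at least 0.5 TPM, members and listed genes were fitted with limma 3.58.1 (R 4.3.3, trend) on log2(TPM + 0.5), by model for radiation and over 8 groups between models, at a Benjamini-Hochberg adjusted p of 0.05. Fold changes on this scale understate low genes. The script was tested on simulated data. Reads were estimated from coverage, and counting error only is covered by them. Exact permutation tests of single values and of the Mdm2 share used scipy 1.17.1. Other pseudocounts (0.1 and 1), scalings, filters, fits and left-out libraries were tried.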

Additional observations from a re-analysis of the deposited data

Results flagged for a closer look

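Of 70 sets of 4 values (the members and the Mdm2 share in each group of 4 tumors), 3 held 1 tumor that stood far from the other 3 by Dixon's criterion, which chance meets in about 1 in 20 groups. Rap1b had 287.401 TPM in MC38 mouse 1 at 24 h, where the other 3 tumors had 170.1 to 188 TPM. Rap1b also had 112.173 TPM in MC38 control mouse 1, below the other controls at 146 to 149.9 TPM. Both tumors were the richest of their group in muscle markers, at 3483 and 10318 TPM, and the part of muscle in these values was not tested. Without mouse 1 at 24 h the Rap1b difference from control was 0.38 (limma adjusted p = 0.102). Cpsf6 had 32.0085 TPM in MC38 mouse 3 at 24 h, below the other 3 tumors at 35.4 to 36.1 TPM.

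The response at 12 h differed between the models in 3 members by the interaction term in limma. The RM9 response minus the MC38 response was -0.794744 for Cpsf6 (adjusted p = 0.00815), -0.793421 for Frs2 (adjusted p = 0.0331) and -0.674776 for Nup107 (adjusted p = 0.0364). The median gene differed by -0.50 in the same direction, and under median-ratio scaling none of the 3 was called, at -0.27, -0.29 and -0.14 (adjusted p = 0.309, 0.542 and 0.735).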

How the results depend on the processing

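The alternatives on coverage, on muscle-rich libraries and with the muscle level as a term were chosen after seeing the data. With each library left out in turn, the members called ranged from 0 to 1 at 3 h, 0 to 2 at 12 h and 0 to 0 at 24 h in RM9, from 0 to 2, 2 to 6 and 1 to 4 in MC38, from 8 to 8, 8 to 9 and 8 to 8 between irradiated models, and from 0 to 0, 1 to 5 and 0 to 1 for the difference in response. The share of Mdm2 above control ranged from 13.7 to 16.6, 7.39 to 9.78 and 7.005 to 9.59 percentage points in RM9 and from 3.50 to 4.37, 3.07 to 3.74 and 1.17 to 2.30 in MC38, and with 3 against 4 the exact test cannot go below 0.0571.

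In RM9 at 3 h, 0 members were called with no filter, with only the compared groups, without muscle-rich libraries and with the muscle term. In RM9 at 12 h, 0 were called under those 4 settings, without mitochondrial genes and without the trend, and 2 with a filter of 5 TPM. In MC38 at 3 h, 0 were called with only the compared groups and 2 on coverage, by Dunnett's test and with the muscle term. In MC38 at 12 h, 2 were called with only the compared groups, without muscle-rich libraries and with the muscle term. In MC38 at 24 h, 0 were called with only the compared groups and 1 without muscle-rich libraries. For the difference in response at 12 h, 0 were called with median-ratio scaling, without mitochondrial genes and on coverage, and 1 with no filter or without muscle-rich libraries. The difference of Cpsf6 between irradiated models reversed at 3, 12 and 24 h to 0.61, 0.53 and 0.73 with median-ratio scaling, 0.33, 0.042 and 0.38 without mitochondrial genes, and 0.48, 0.47 and 0.78 on coverage. The cause was not tested.

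Over all genes, calls ranged by setting from 0 to 485 (32 as reported) at 3 h and 0 to 1576 (1174) at 12 h in RM9, from 1 to 599 (10), 789 to 7286 (4875) and 312 to 3524 (2159) in MC38, and for the response from 0 to 11 (0), 436 to 8586 (6975) and 60 to 1447 (278). Median-ratio scaling gave 225 higher and 158 lower genes at 3 h (28 and 4 as reported) and 13 and 6 at 12 h (10 and 1164) in RM9, 46 and 56 at 3 h (8 and 2) and 1232 and 1280 at 24 h (2073 and 86) in MC38, and 44 and 220 for the response at 24 h (0 and 278). Replicate numbers did not pair the tumors, with a median correlation of deviations between same-numbered tumors of -0.06 in RM9 and -0.07 in MC38. With the replicate block, 1, 1 and 0 members were called in RM9 at 3, 12 and 24 h, 1, 6 and 2 in MC38, 8, 8 and 8 between models, and 0, 4 and 0 for the response. Depth limits Cpm in MC38, at 20.8 to 47.6 estimated reads per library.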
